A study of Mus musculus with 8 samples.

Results

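Hyaluronan is a large, unbranched sugar polymer of the extracellular matrix (ECM). The results below describe 10 genes that make it, bind it or break it down in primary mouse lung fibroblasts (pFBs). They are the synthases *Has1*, *Has2* and *Has3*, the receptor *Cd44*, the binding proteins *Vcan*, *Tnfaip6* and *Hapln1*, the hyaluronidases *Hyal1* and *Hyal2*, and *Cemip*. Each was found by its symbol, and all 10 were present among the 54532 entries of the count table, of which 27324 had at least 1 count. The 8 RNA-seq libraries were cultures from female mice of the C57/black strain background: 4 wild type (WT1 to WT4) and 4 from mice with the genotype hIGFBP5 (HOMO1 to HOMO4). HOMO mice are homozygous for a CRISPR/Cas9 knock-in of human insulin-like growth factor binding protein 5 (hIGFBP5), expressed ubiquitously from the Ef1a1 promoter, so that the transgene was on in all cells of the donor and not in fibroblasts alone. Both genotypes were untreated and grown in serum-containing medium. The age of the mice and the number of mice behind the 4 libraries of each genotype were not given, so p-values measure only the spread between these libraries, which may be technical. IGFBP5 is a secreted profibrotic factor, and the comparison HOMO vs. WT asks which transcripts of pFBs differ when its human form is expressed.

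As background, the 3 hyaluronan synthases are plasma membrane enzymes that join UDP-glucuronic acid and UDP-N-acetylglucosamine and push the growing chain out of the cell. *Has2* is the synthase needed for embryonic development and is the one most studied in mesenchymal cells. Outside the cell the chain is held by the receptor Cd44 and by matrix proteins such as versican (*Vcan*), and it is shortened by Cemip and by the hyaluronidases. In injured and fibrotic lung, hyaluronan accumulates in the matrix around fibroblasts, and its receptor Cd44 takes part in their movement.

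Library totals were 17236521 to 29028769 counts in WT and 19009027 to 31987790 in HOMO, and 3 counts corresponded to 0.0908 to 0.172 CPM (counts scaled to a common library size), the level under which a gene was taken as not detectable. The libraries did not vary evenly. The biological coefficient of variation, the relative spread between 2 libraries beyond counting error, was 7.65% for WT1 and WT2, 4.71% for HOMO1 and HOMO2 and 5.07% for HOMO3 and HOMO4, against 30.0% to 56.4% for all other pairs of one genotype. With the counts of each close pair summed, leaving 3 WT and 2 HOMO units, edgeR called 0 of 16130 fitted genes at the thresholds used here. Of these genes, 2057 had an unadjusted p under 0.05. Mouse *Igfbp5*, the endogenous counterpart of the transgene, had 7130 counts in WT3, 112 to 225 in the other WT libraries and 24 to 57 in HOMO. The human transgene was not analysed here. All 8 fibroblast markers were counted in every group, with a summed level of 12383 to 16035 CPM in WT and 13714 to 24000 CPM in HOMO. Of these, edgeR called 1 lower (*Vim*), DESeq2 2 higher (*Col1a1* and *Col1a2*) and 2 lower (*Vim* and *Thy1*), and limma-voom 3 higher and 2 lower. Summed markers of T and B cells stayed between 0.0563 and 0.551 CPM with *Cd3g* at 0, and those of endothelium between 1.33 and 4.36 CPM. Epithelial markers summed to 0.844 to 1.95 CPM in WT and 4.24 to 17.2 CPM in HOMO with *Krt5* at 0. Of the epithelial markers edgeR called 1 higher of the 2 fitted (*Cdh1*), DESeq2 4 higher (*Ager*, *Cdh1*, *Scgb1a1* and *Sftpc*) and limma-voom 2 higher (*Ager* and *Cdh1*). Mesothelial markers summed to 52.8 to 237 CPM in WT and 106 to 153 CPM in HOMO, with 1 of the 6 fitted called higher in edgeR (*Wt1*), 1 higher and 1 lower in DESeq2 (*Wt1* and *Krt19*) and 5 higher and 1 lower (*Krt19*) in limma-voom. Smooth muscle and pericyte markers summed to 135 to 428 CPM in WT and 72.4 to 194 CPM in HOMO, with 1 of 7 called lower in edgeR and in DESeq2 (*Rgs5*) and 1 higher and 1 lower in limma-voom.

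In the HOMO vs. WT comparison, *Has2* and *Has3* were upregulated and *Hyal1* was downregulated. *Cd44*, *Vcan*, *Tnfaip6*, *Hyal2* and *Cemip* did not pass, and *Has1* and *Hapln1* had too few counts for the filter of the reported edgeR fit. A differentially expressed gene (DEG) here is one whose edgeR quasi-likelihood p, adjusted by Benjamini-Hochberg over the table, was under 0.05 and whose log2 fold change exceeded 0.6 in either direction. By this rule 3 of the 8 fitted hyaluronan genes were DEGs, 2 higher and 1 lower in HOMO, while 12.1% of the 14150 fitted genes of the table were DEGs, 5.94% higher and 6.18% lower. The median log2 fold change was -0.02 over these 8 genes and -0.04 over all fitted genes. An unadjusted edgeR p under 0.05 was found for 4 of the 8, beside 4573 of the 14150 fitted genes of the table. DESeq2 at the same thresholds called 5 of the 9 genes for which it gave an adjusted p, against 16.5% over its 17610 genes, and limma-voom called 5 of the 8 against 25.3%. In 3 of the 8 genes the WT and HOMO libraries did not overlap in CPM, 2 with HOMO higher and 1 with HOMO lower, and the share over all fitted genes was 27.3%, 14.0% with HOMO higher and 13.4% with HOMO lower.

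**Figure D1:**
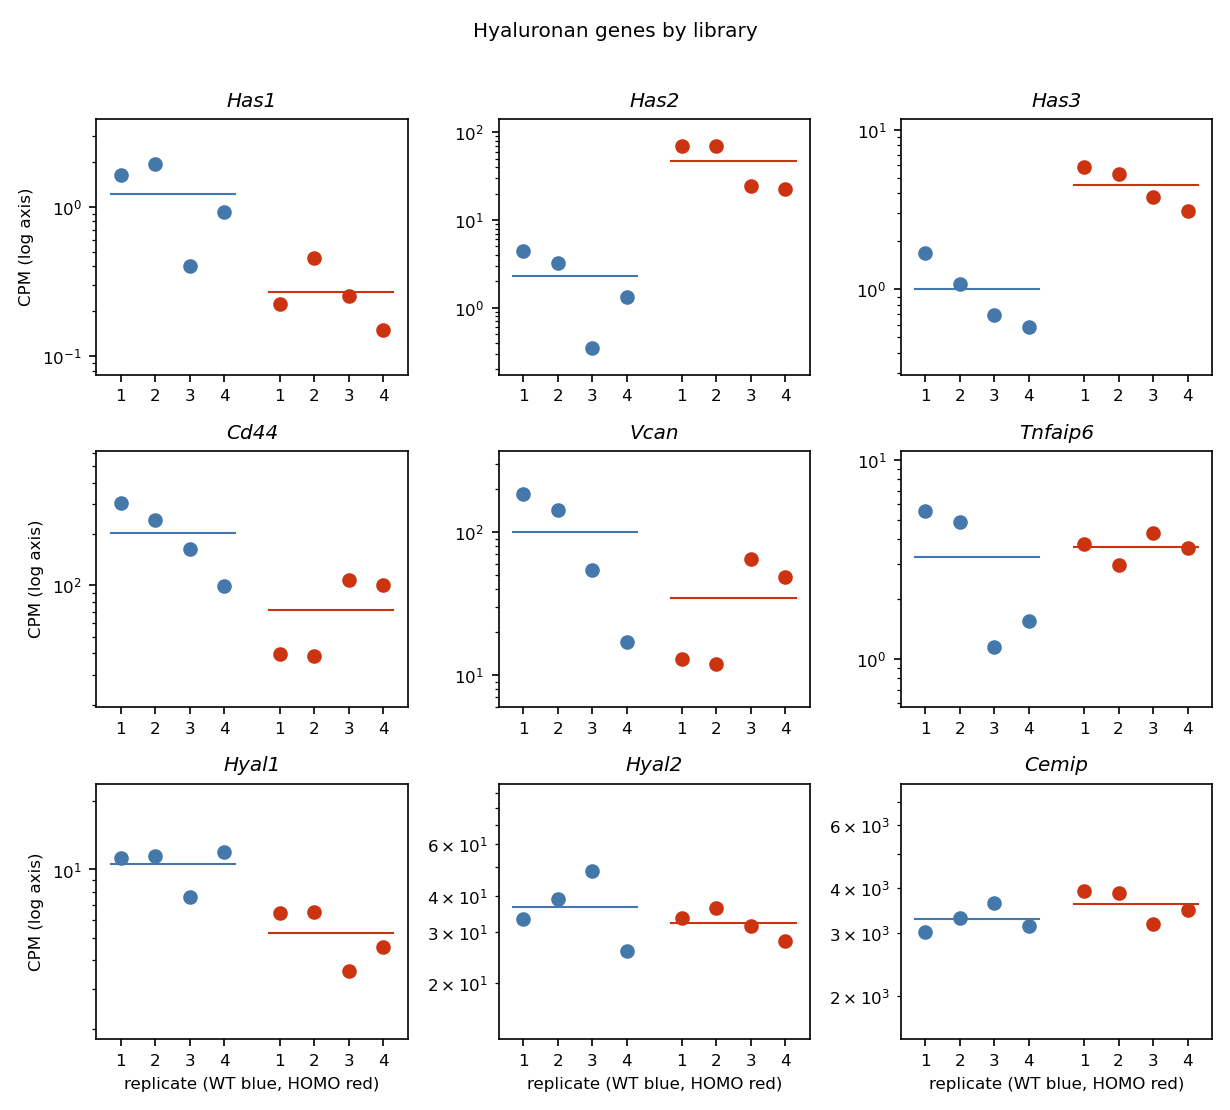
CPM on a log axis for the 9 hyaluronan genes with counts, 1 point per library (replicates 1 to 4, WT blue and HOMO red) and a line at the mean of each genotype. The HOMO points of *Has2* and *Has3* all lie above the WT points, those of *Hyal1* all lie below, and the remaining genes overlap between genotypes.

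*Has2* (chr15:56665627-56694539 on the minus strand, mm10) showed the largest difference of the set. It was measured at 4.39, 3.22, 0.344 and 1.32 CPM in WT1 to WT4, from 78, 75, 6 and 34 counts. In HOMO1 to HOMO4 it was 70.2, 70.1, 24.5 and 22.6 CPM, from 1575, 2318, 484 and 451 counts. Every HOMO library was above every WT library, with WT3 the lowest of all and HOMO1 and HOMO2 the highest. The means were 2.32 ± 1.83 CPM in WT and 46.9 ± 26.9 CPM in HOMO (SD, n = 4 each), a 20.2-fold difference. On the log2 scale *Has2* was upregulated by 4.34 (SE 0.75, edgeR adjusted p = 0.0103). Each of the 8 fits that left out 1 library called it as well, at 3.99 to 4.82. With the close pairs summed the log2 fold change was 4.67 (SE 0.97) and the edgeR adjusted p was 0.235. In bulk libraries such as these, more cells that express *Has2* and more *Has2* RNA per cell cannot be told apart, and the same holds for every level below.

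*Has2os*, the antisense transcript of the *Has2* locus (chr15:56689944-56778399 on the plus strand), had 1, 0, 0 and 2 counts in the WT libraries in order and 33, 39, 15 and 5 in the HOMO libraries. All WT libraries were at or under the 3-count level, and every HOMO library was above it. Its mean level was at least 6.25-fold higher in HOMO when each WT library was set at 3 counts. A two-sided exact permutation test of mean CPM gave p = 0.0286 (unadjusted), the smallest that 4 against 4 libraries allow. The test here and for *Has1* below takes the close pairs as independent libraries, and it was not run with them summed. The exons of *Has2* and *Has2os* share 182 bases on opposite strands, 4.30% of the *Has2* exon bases and 11.2% of those of *Has2os*. Since the strand setting of the counting was not stated, reads from the shared bases cannot be assigned to one or the other.

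*Has3* (chr8:106870242-106884566, plus strand), which is known to make shorter chains than *Has2*, was the second upregulated synthase. Its level was 1.69, 1.07, 0.689 and 0.581 CPM in WT1 to WT4, from 30, 25, 12 and 15 counts. It was 5.84, 5.26, 3.80 and 3.11 CPM in HOMO1 to HOMO4, from 131, 174, 75 and 62 counts. No HOMO library reached down into the WT range, and HOMO1 and HOMO2 were again the 2 highest. The means of 1.01 ± 0.50 and 4.50 ± 1.27 CPM (SD, n = 4 each) were 4.47-fold apart, which on the log2 scale was 2.16 (SE 0.41, edgeR adjusted p = 0.0141). *Has3* missed the threshold without HOMO1 (edgeR adjusted p = 0.0547), without HOMO2 (0.0546) and with the close pairs summed (0.276, log2 fold change 2.36). The 790 fitted genes on chromosome 8, *Has3* among them, had a median log2 fold change of 0.37. Upregulated were 135 of them, beside 5.94% of all fitted genes of the table. The part of this chromosome-wide shift in the *Has3* value was not tested. *Has3* also shares 352 exon bases (5.52%) with *Chtf8* on the opposite strand, a gene with 1627 to 2640 counts in WT and 2699 to 4326 in HOMO.

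*Has1* (chr17:17843323-17855205, minus strand) had the lowest level of the synthases per kb of exon in HOMO, with 105 counts in the 4 WT libraries together and 28 in the 4 HOMO libraries. Per library these were 29, 45, 7 and 24 counts (1.63, 1.93, 0.402 and 0.929 CPM) in WT1 to WT4. In HOMO1 to HOMO4 there were 5, 15, 5 and 3 counts (0.223, 0.454, 0.253 and 0.150 CPM). The groups overlapped only in that WT3 lay below HOMO2. The mean was 1.22 ± 0.69 CPM in WT and 0.270 ± 0.130 CPM in HOMO (SD, n = 4 each), and its difference did not pass a two-sided exact permutation test (p = 0.0571, unadjusted). Without WT3, the only WT library within the HOMO range, that exact test gave p = 0.0286. This value follows from leaving out the library that made the overlap and adds nothing to the test of all libraries. DESeq2, which kept *Has1* in its fit, gave a log2 fold change of -2.15 with an adjusted p of 0.00875 and would call it downregulated. Some edgeR settings kept *Has1* too. With no filter on low counts edgeR called 0 hyaluronan genes lower in HOMO, so *Has1* was not called. The same held with the close pairs summed, without WT1 and without each HOMO library in turn. Without WT3, the library that made the overlap, edgeR called 2 lower, *Hyal1* and *Has1*.

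Expressed per kilobase (kb) of exon, which puts genes of different length on one scale, the 3 synthases together had a level of 0.975 ± 0.642 CPM per kb in WT (0.278 to 1.66) and 11.8 ± 6.56 in HOMO (5.86 to 17.5; SD, n = 4 each). The split between them differed as well. *Has2* made up 49.7 ± 14.4% of the sum in WT (29.2% to 62.3%) and 92.5 ± 2.42% in HOMO (89.9% to 94.7%). *Has1* held 29.8 ± 5.45% in WT and 0.574 ± 0.241% in HOMO, and *Has3* held 20.5 ± 12.3% and 6.88 ± 2.24%. WT3 was the one library in which *Has3* had the largest share, at 38.8%, and there *Has1* and *Has2* were at their lowest WT levels. These shares are descriptions of the levels above and were not tested. The transcripts of the 3 genes are distinct enough for short reads: the longest exact run shared by any 2 of the 10 genes was 24 bases, and by *Has2* and *Has3* 23 bases.

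**Figure D2:**
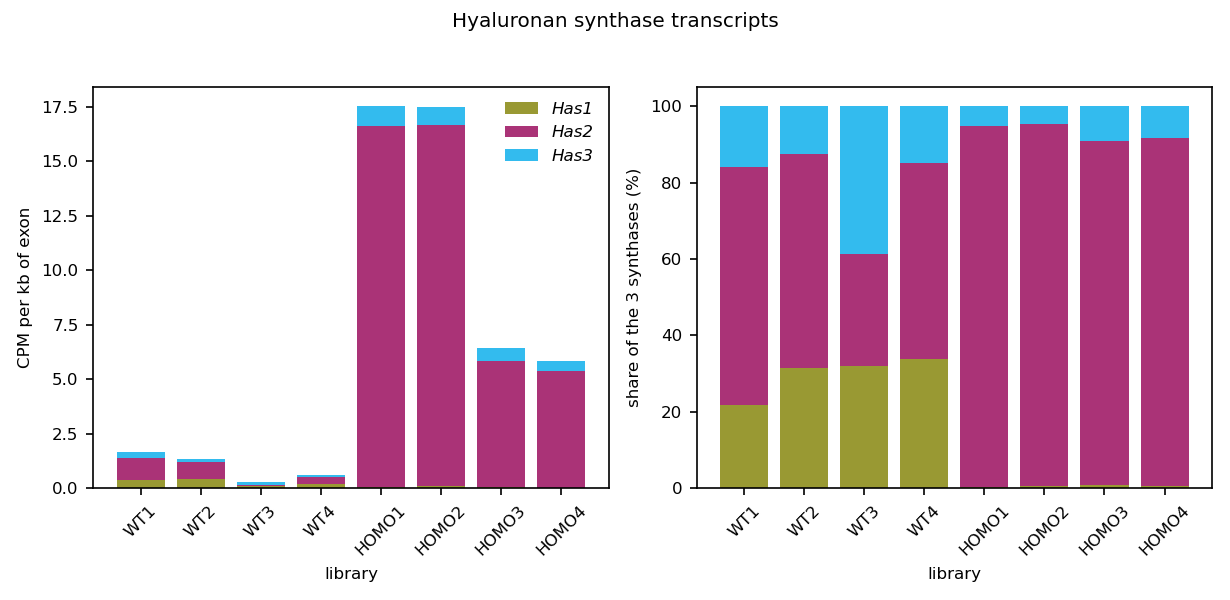
Left, summed level of the hyaluronan synthases in each library, in CPM per kb of exon, and right, the share of each synthase in that sum in percent. The HOMO bars reach 5.86 to 17.5 CPM per kb against 0.278 to 1.66 in WT, and *Has2* fills at least 89.9% of each HOMO bar.

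Of the genes that bind hyaluronan, 0 of the 3 fitted passed in edgeR and 1 (*Cd44*) had an unadjusted p under 0.05, while DESeq2 called *Cd44* and limma-voom *Cd44* and *Vcan*. *Cd44* (chr2:102811141-102901665, minus strand) encodes the main cell surface receptor. It was measured at 305, 241, 163 and 99.2 CPM in WT1 to WT4 and at 39.3, 38.7, 107 and 100 CPM in HOMO1 to HOMO4. WT4 lay within the HOMO range, while WT1 to WT3 lay above it. The means were 202 ± 89.7 and 71.2 ± 37.3 CPM (SD, n = 4 each), with a log2 fold change of -1.5 (SE 0.46) that missed the threshold in edgeR (adjusted p = 0.0609). The call depended on the tool and on 1 library, since *Cd44* was called downregulated by DESeq2 (adjusted p = 0.00931), by limma-voom (adjusted p = 0.00163) and by edgeR without WT4 (adjusted p = 0.0393).

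*Vcan* (chr13:89655312-89742509, minus strand) encodes versican, a large proteoglycan that ties hyaluronan into the pericellular matrix. Its level was 184, 144, 54.6 and 17.1 CPM in WT1 to WT4 and 13.0, 12.0, 64.8 and 48.9 CPM in HOMO1 to HOMO4. The groups overlapped widely. The means were 99.9 ± 77.2 and 34.7 ± 26.4 CPM (SD, n = 4 each), and the SD in WT was larger than the difference between them. The log2 fold change was -1.53 (SE 0.79, edgeR adjusted p = 0.215). Only limma-voom called it, at -2.15 (adjusted p = 0.00624), and DESeq2 gave an adjusted p of 0.113.

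Within each genotype *Cd44* and *Vcan* followed the same split of libraries. Both were higher in WT1 and WT2 than in WT3 and WT4, and higher in HOMO3 and HOMO4 than in HOMO1 and HOMO2. Since libraries come in close pairs, other genes can split in this way too, and the share of all genes that do was not counted. The summed level of 8 proliferation markers divided the libraries in the same way, at 1174 and 1041 CPM in WT1 and WT2, 160 and 64.7 CPM in WT3 and WT4, 166 and 155 CPM in HOMO1 and HOMO2, and 860 and 784 CPM in HOMO3 and HOMO4. None of these 8 markers was a DEG in edgeR, DESeq2 or limma-voom, and 0 had an unadjusted edgeR p under 0.05. *Hmmr*, which encodes a further hyaluronan receptor that also binds the mitotic spindle, was at 125 and 115 CPM in WT1 and WT2 against 9.87 and 5.11 in WT3 and WT4. In HOMO it was at 13.8 and 13.0 CPM in the first pair and 76.9 and 69.7 in the second (log2 fold change -0.56, SE 1.03, edgeR adjusted p = 0.747). *Has2* was ordered the other way within HOMO, with the higher values in HOMO1 and HOMO2. The fibroblast sum and the smooth muscle and pericyte sum were also higher in HOMO3 and HOMO4 than in HOMO1 and HOMO2. In WT neither was higher in WT1 and WT2 than in both WT3 and WT4. Summed macrophage markers were 122 and 155 CPM in WT1 and WT2 and 2216 and 1300 CPM in WT3 and WT4. They were 27.3 and 26.1 CPM in HOMO1 and HOMO2 and 153 and 177 CPM in HOMO3 and HOMO4. Of the 10 macrophage markers edgeR called 0, limma-voom 0 and DESeq2 5. An unadjusted edgeR p under 0.05 was found for 7 of them, beside 4573 of the 14150 fitted genes. The part of proliferation or of macrophage transcripts in the *Cd44* and *Vcan* values was not tested.

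**Figure D3:**
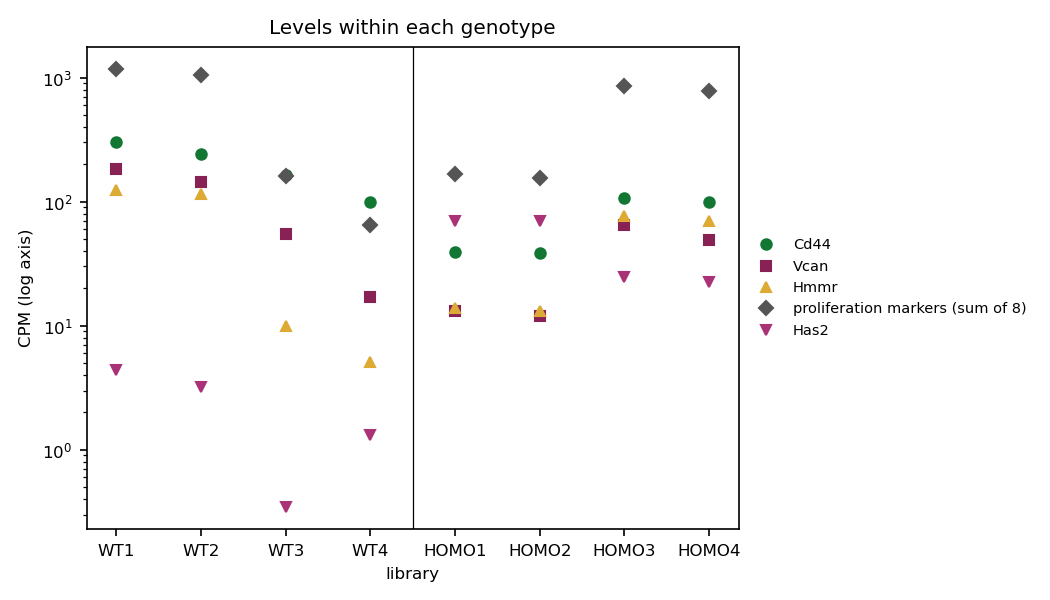
CPM on a log axis in each of the 8 libraries for *Cd44*, *Vcan*, *Hmmr*, *Has2* and the sum of 8 proliferation markers. All but *Has2* are higher in HOMO3 and HOMO4 than in HOMO1 and HOMO2, and all are higher in WT1 and WT2 than in WT3 and WT4.

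*Tnfaip6* (chr2:52038009-52056686, plus strand) encodes Tsg-6, the secreted protein that transfers the heavy chains of inter-alpha-inhibitor onto hyaluronan. It was measured at 5.51, 4.85, 1.15 and 1.55 CPM in WT1 to WT4 and at 3.79, 2.96, 4.31 and 3.61 CPM in HOMO1 to HOMO4. The HOMO libraries lay close together and inside the WT range. The means were 3.26 ± 2.24 and 3.67 ± 0.55 CPM (SD, n = 4 each), and the log2 fold change was 0.17 (SE 0.50, edgeR adjusted p = 0.850). *Hapln1* (chr13:89539796-89611652, plus strand), the link protein that locks versican or aggrecan onto hyaluronan in cartilage, lies 43.7 kb from *Vcan* and had 0 counts in all 8 libraries, which allows a level of up to 0.0908 to 0.172 CPM depending on the library.

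*Hyal1*, *Hyal2* and *Cemip* act on the finished chain. Hyal2 is anchored at the cell surface and cuts long chains into fragments, and Hyal1 is the lysosomal enzyme that cuts these further. Cemip binds hyaluronan and is needed for its breakdown in skin fibroblasts. *Hyal2* and *Hyal1* lie in tandem on chromosome 9, 4.15 kb apart on the plus strand, and the sequences around their starts are shown because of this, with that of *Cemip* beside them. The difference between the *Hyal1* and *Hyal2* changes was not tested. Each is the 300-base RefSeq promoter window of GRCm38.p6 (250 bases before to 50 after the annotated start), at chr9:107576700-107576999 for *Hyal1*, chr9:107568913-107569212 for *Hyal2* and chr7:84086456-84086755 on the minus strand for *Cemip*. Capitals mark matches on either strand to one of 5 motifs. These are the GC box with the letters GGGCGG, the CCAAT motif, which is named by its letters, the TATA motif with the letters TATAAA, the cAMP response element with the letters TGACGTCA, and the AP-1 site with the letters TGANTCA.
Hyal1: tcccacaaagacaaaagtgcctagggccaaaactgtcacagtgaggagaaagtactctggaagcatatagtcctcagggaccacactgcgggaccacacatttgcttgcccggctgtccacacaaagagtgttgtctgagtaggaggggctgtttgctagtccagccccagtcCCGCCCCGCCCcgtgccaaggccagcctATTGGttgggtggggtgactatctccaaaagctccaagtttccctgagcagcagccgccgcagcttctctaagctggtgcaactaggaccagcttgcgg
Hyal2: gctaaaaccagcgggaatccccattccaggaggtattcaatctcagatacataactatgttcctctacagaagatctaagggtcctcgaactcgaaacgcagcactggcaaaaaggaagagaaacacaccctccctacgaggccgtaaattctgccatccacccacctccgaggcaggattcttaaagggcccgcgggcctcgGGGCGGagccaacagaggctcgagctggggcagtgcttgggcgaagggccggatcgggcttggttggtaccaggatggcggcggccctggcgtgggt
Cemip: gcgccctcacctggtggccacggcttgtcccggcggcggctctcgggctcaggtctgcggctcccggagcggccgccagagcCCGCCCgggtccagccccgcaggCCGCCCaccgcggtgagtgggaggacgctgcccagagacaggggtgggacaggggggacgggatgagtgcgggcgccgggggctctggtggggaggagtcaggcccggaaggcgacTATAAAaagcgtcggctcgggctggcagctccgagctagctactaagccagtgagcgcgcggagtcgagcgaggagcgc

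The *Hyal1* window held 2 GC boxes that overlap by 1 base, beginning 77 and 72 bases before the start, and a CCAAT motif beginning 49 bases before it. The *Hyal2* window held 1 GC box, beginning 47 bases before the start, and no CCAAT motif. The RefSeq start used for this window lies inside the *Hyal2* span given below and not at its first base. *Cemip* had 2 GC boxes (168 and 145 bases before the start) and a TATA motif at 29 bases before it. Such matches are common: 35.7% of the 32851 mouse promoter windows held a GC box, 37.4% a CCAAT motif and 13.6% a TATA motif. No window of the 3 held a cAMP response element or an AP-1 site, which 1.79% and 7.81% of all windows did. A match describes the letters of the window and nothing was measured on these promoters. Windows were matched for 8 of the 10 genes, without *Has2* and *Has3*.

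*Hyal1* (chr9:107576927-107581710) was the one downregulated gene of the set. Its level was 11.3, 11.4, 7.57 and 11.9 CPM in WT1 to WT4, from 200, 266, 132 and 308 counts. It was 6.46, 6.47, 3.60 and 4.56 CPM in HOMO1 to HOMO4, from 145, 214, 71 and 91 counts. The groups did not overlap, with WT3 the lowest WT library and the gap to the highest HOMO library small. The means of 10.5 ± 2.0 and 5.27 ± 1.43 CPM (SD, n = 4 each) gave a log2 fold change of -1.0 (SE 0.26, edgeR adjusted p = 0.0414). The call rested on nearly the whole set of libraries. Of the 8 fits without 1 library, only the one without WT3 called *Hyal1* (edgeR adjusted p = 0.0190), and the others gave adjusted p-values of 0.0653 to 0.111 at log2 fold changes of -1.11 to -0.85. With the close pairs summed the edgeR adjusted p was 0.410 (log2 fold change -0.95). Of the *Hyal1* exon bases, 1920 (50.8%) are also exon bases of *Naa80* on the same strand, listed in the count table under its older symbol *Nat6*. *Nat6* counts were 217, 298, 487 and 484 in the WT libraries in order and 293, 521, 244 and 272 in the HOMO libraries. A further 159 bases (4.21%) are shared with *Hyal3*, which had 1 to 13 counts per library. How the counting split reads from the shared bases was not stated, so the level of *Hyal1* is uncertain.

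*Hyal2* (chr9:107567945-107572779) was measured at 33.3, 38.9, 48.5 and 25.7 CPM in WT1 to WT4 and at 33.6, 36.2, 31.6 and 28.0 CPM in HOMO1 to HOMO4. All HOMO libraries fell inside the WT range. The means were 36.6 ± 9.60 and 32.4 ± 3.46 CPM (SD, n = 4 each), and the log2 fold change was -0.18 (SE 0.20, edgeR adjusted p = 0.578). None of the 19 alternative settings called it.

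*Cemip* (chr7:83932857-84086502, minus strand) had the highest level of the 10 genes per kb of exon. It was measured at 3023, 3307, 3642 and 3138 CPM in WT1 to WT4 and at 3930, 3867, 3184 and 3482 CPM in HOMO1 to HOMO4, from 53726 to 127819 counts per library. The ranges overlapped, and WT3, the lowest WT library for *Has1*, *Has2* and *Hyal1*, was the highest WT library here. The means were 3278 ± 270 and 3616 ± 350 CPM (SD, n = 4 each), with a log2 difference of 0.14 (SE 0.17, edgeR adjusted p = 0.593). With so many counts the spread between libraries, and not depth, set the error.

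**Figure D4:**
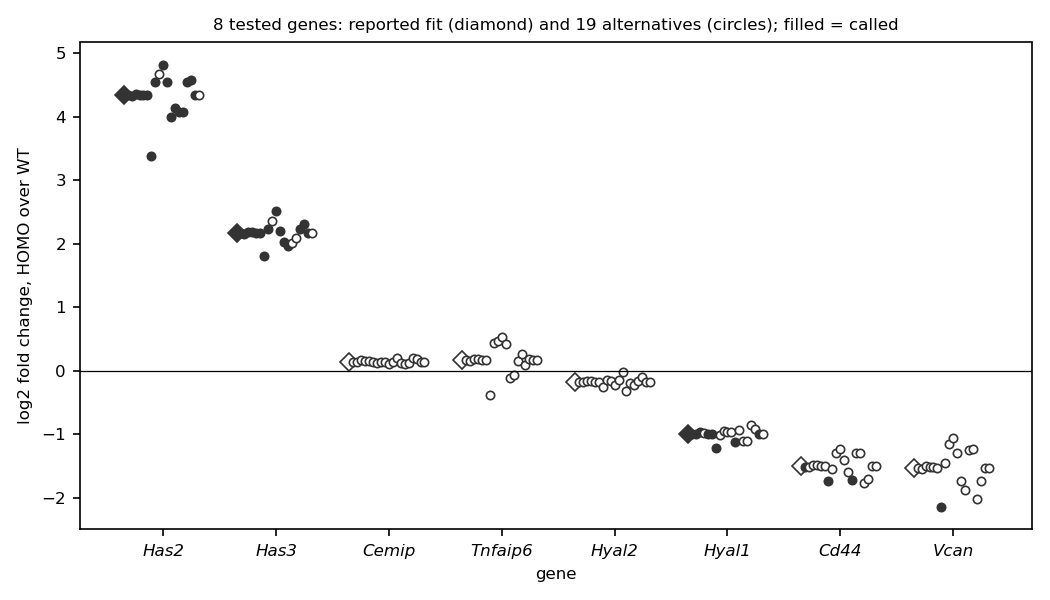
Log2 fold change of HOMO over WT for the 8 fitted hyaluronan genes under the reported fit (diamond) and 19 alternative settings (circles), filled where the gene was called. *Has2* was called in 17 of the 19 alternatives, *Has3* in 15, *Hyal1* in 8, *Cd44* in 3, *Vcan* in 1 and *Tnfaip6*, *Hyal2* and *Cemip* in none.

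The order of the genes on the per kb scale differed between genotypes mainly through *Has2*. In WT the mean levels in CPM per kb were 268 for *Cemip*, 29.8 for *Cd44*, 11.1 for *Hyal2*, 6.91 for *Vcan*, 2.79 for *Hyal1*, 1.91 for *Tnfaip6*, 0.547 for *Has2*, 0.271 for *Has1* and 0.158 for *Has3*. From *Cd44* down to *Has3* the range of each gene over the WT libraries overlapped with that of the next, while *Cemip* stood clear of *Cd44*. Within single libraries *Cd44* was above *Hyal2* in 4 of 4 and *Tnfaip6* above *Has2* in 4 of 4, and each other overlapping neighbor was above the next in 3 of 4. In HOMO the order was *Cemip* at 296, *Has2* at 11.1, *Cd44* at 10.5, *Hyal2* at 9.83, *Vcan* at 2.40, *Tnfaip6* at 2.15, *Hyal1* at 1.40, *Has3* at 0.706 and *Has1* at 0.0598 CPM per kb. There the ranges of *Has2*, *Cd44* and *Hyal2* overlapped as neighbors, as did those of *Vcan* and *Tnfaip6*, with the first of each pair above the next in 2 of 4 libraries, and the remaining neighbors were apart. *Has2* thus stood seventh of the 9 detected genes in WT and second in HOMO.

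The other genes of hyaluronan metabolism were 47 in all, *Has2os* included, of which 30 were fitted. Of these 30, 8 had an unadjusted edgeR p under 0.05, beside 4573 of all 14150 fitted genes. Of the 30, 3 were upregulated and 0 downregulated in edgeR. The one-sided split did not hold in the other tools. DESeq2 called 4 higher and 3 lower, 7 of the 37 for which it gave an adjusted p, beside its 16.5% over all genes, and limma-voom called 8 higher and 5 lower of the 30, beside its 25.3%. Their median log2 fold change was -0.15, with 12 above and 18 below 0, against 12.1% DEGs in edgeR and a median of -0.04 over all fitted genes. The libraries of the 2 genotypes did not overlap for 6 of the 30, 3 with HOMO higher and 3 with HOMO lower, beside 27.3% of all fitted genes.

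None of the 6 fitted genes that supply the sugar nucleotides was a DEG in edgeR (1 had an unadjusted p under 0.05), while DESeq2 called 1 (*Uap1*) and limma-voom 1 (*Gfpt2*). *Gfpt1*, the entry enzyme of the hexosamine pathway and the one with the highest mean CPM, was at 140 CPM in WT and 149 in HOMO (log2 fold change 0.08, edgeR adjusted p = 0.794). *Uap1*, which makes UDP-N-acetylglucosamine, did not overlap between genotypes, at 56.6 CPM in WT and 36.0 in HOMO, and missed the threshold (log2 fold change -0.65, edgeR adjusted p = 0.0650).

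None of the 6 further receptors passed in edgeR (1 had an unadjusted p under 0.05), DESeq2 called 1 (*Stab1*), and limma-voom called 3 (*Stab1*, *Tlr2* and *Tlr4*). *Stab1*, a scavenger receptor of macrophages and endothelium, was at 16.1 CPM in WT and 2.20 in HOMO without overlap (log2 fold change -2.88, SE 0.83, edgeR adjusted p = 0.0526). Beside it stand the macrophage markers given above, which were highest in WT3 and WT4, and their part in the *Stab1* value was not tested. Of the other link proteins and hyaluronan-binding proteoglycans, only *Hapln4* was abundant enough for the fit. *Hapln4*, a link protein best known from brain, was at 10.6, 12.5, 7.06 and 18.1 CPM in WT1 to WT4 and at 30.0, 32.1, 30.3 and 32.9 CPM in HOMO1 to HOMO4, with no overlap. It was upregulated by 1.37 on the log2 scale (SE 0.26, edgeR adjusted p = 0.0148). It missed the threshold without HOMO1 (edgeR adjusted p = 0.0501) and without HOMO2 (0.0537). Like *Has3* it lies on chromosome 8 (chr8:70083457-70090862), whose median shift is given above.

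Among the inter-alpha-inhibitor heavy chains and their partners, 0 of the 4 fitted genes were DEGs in edgeR (0 had an unadjusted p under 0.05) and 0 in DESeq2, and limma-voom called 1 (*Itih5*). *Itih2*, with the highest mean CPM of them, was at 60.9 CPM in WT and 65.4 in HOMO (log2 fold change 0.10, edgeR adjusted p = 0.952). Of the 4 fitted genes for further turnover 0 were DEGs in edgeR (1 had an unadjusted p under 0.05) and 0 in DESeq2, and limma-voom called 1 (*Hexa*). *Hexa*, a subunit of lysosomal beta-hexosaminidase, was at 354 and 343 CPM (log2 fold change -0.05, edgeR adjusted p = 0.963). *Gusb*, the lysosomal beta-glucuronidase, was at 165 and 134 CPM without overlap (log2 fold change -0.30, edgeR adjusted p = 0.0999). The hyaluronidase genes *Hyal4*, *Hyal5*, *Hyal6* and *Spam1* and the proteoglycan gene *Ncan* had 0 counts in all libraries.

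Of the 5 fitted proteases that cleave versican, 1 (*Adamts9*) was upregulated in edgeR. DESeq2 called 1 higher (*Adamts9*) and 1 lower (*Adamts4*), and limma-voom 3 higher (*Adamts1*, *Adamts9* and *Adamts15*) and 1 lower (*Adamts4*). *Adamts9* was at 65.1, 65.3, 45.8 and 72.6 CPM in WT1 to WT4 and at 405, 391, 170 and 167 CPM in HOMO1 to HOMO4. The HOMO libraries split into the same high and low pairs as for *Has2*. The means of 62.2 ± 11.5 and 283 ± 133 CPM (SD, n = 4 each) gave a log2 fold change of 2.19 (SE 0.34, edgeR adjusted p = 0.00789). *Adamts9* shares 1381 exon bases (9.18%) with *A730049H05Rik* on the opposite strand, a gene with 5 to 98 counts in WT and 49 to 189 in HOMO. *Adamts1*, with a mean of 426 CPM in WT and 713 in HOMO, missed the threshold in edgeR (log2 fold change 0.74, adjusted p = 0.159). *Adamts4* was at 13.7 to 36.7 CPM in the WT libraries and at 9.41 to 14.4 CPM in the HOMO libraries. These ranges overlapped through WT4, and *Adamts4* missed the threshold in edgeR (log2 fold change -0.92, SE 0.31, adjusted p = 0.0814) while DESeq2 gave an adjusted p of 0.0369. Of the 4 proteins that link the Cd44 tail to actin, ezrin (*Ezr*) was upregulated, from 83.9, 77.8, 146 and 150 CPM in WT1 to WT4 to 453, 444, 272 and 292 CPM in HOMO1 to HOMO4. Its log2 fold change was 1.67 (SE 0.29, edgeR adjusted p = 0.0102), while moesin (*Msn*), with the highest mean CPM of the 4, was at 818 and 502 CPM (log2 fold change -0.70, edgeR adjusted p = 0.128). DESeq2 called *Ezr* alone of the 4, and limma-voom called *Ezr* higher and *Msn* lower. In all 3 upregulated genes outside the 10 every HOMO library was above every WT library, as in 14.0% of all fitted genes. The 3 were called on these same libraries, so this adds nothing to their call. With the close pairs summed all 3 missed the threshold, at an edgeR adjusted p of 0.205 for *Adamts9*, 0.268 for *Ezr* and 0.338 for *Hapln4*.

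**Figure D5:**
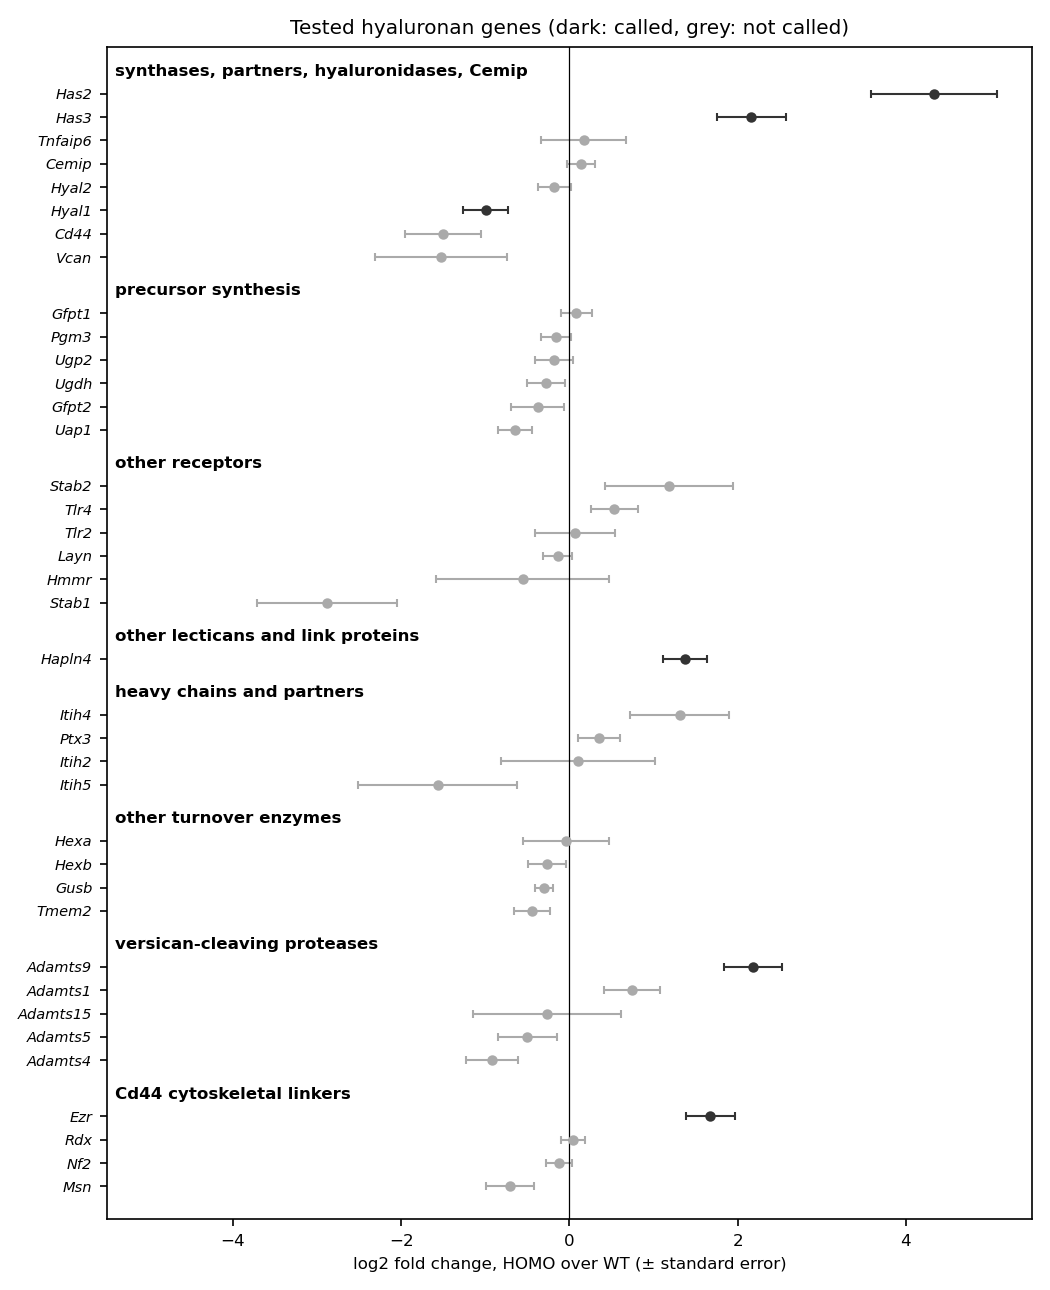
Log2 fold change of HOMO over WT with its standard error for the 8 fitted hyaluronan genes (top group) and the 30 fitted genes of the further lists, dark where called and grey where not. *Has2* at 4.34 and *Adamts9* at 2.19 lie farthest to the right, and *Hyal1* at -1.0 is the one called gene left of 0.

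The genes most like the 3 DEGs in pattern were sought by Pearson correlation of log2 CPM over the 8 libraries, given as a description, since all 8 points share the genotype split and the close pairs. Nearest to *Has2* were *Nsg1* (r = 0.996, mean 130 CPM in WT and 362 in HOMO), *Mau2* (r = 0.996, 61.3 and 117 CPM) and *D16Ertd472e* (r = 0.994, 13.0 and 33.6 CPM). Nearest to *Has3* were *Sin3a* (r = 0.993), *Ibtk* (r = 0.991) and *Taf1c* (r = 0.991). The closest to *Hyal1* were *Rapgef3* (r = 0.993, 50.8 and 28.5 CPM), *Ssbp2* (r = 0.979) and *Glul* (r = 0.979, 166 and 72.0 CPM).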

How the data were processed

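RNA was measured in 8 libraries of untreated pFBs, 4 WT and 4 HOMO, grouped by their labels. Per the labels and the study's methods, the authors extracted RNA with TRIzol, selected poly(A) mRNA, prepared NEBNext Ultra libraries, sequenced them as paired ends on a NovaSeq, trimmed reads with fastp, aligned them to mm10 with STAR and counted reads per gene with featureCounts. The submitters' processing notes also name CASAVA and DESeq2. Versions, the annotation, the strand setting and the treatment of reads shared by genes were not given in the sources used here. The authors deposited raw counts per gene, in 1 table of 54532 entries in which 103 rows repeat a symbol.

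Counts were fitted over the whole table with edgeR 4.0.16 in R 4.3.3 (limma 3.58.1), using TMM scaling, filterByExpr by genotype (14150 genes kept) and glmQLFit with glmQLFTest. DEGs were called at an adjusted p under 0.05 with a log2 fold change beyond 0.6 in either direction. SE is the absolute log2 fold change over the square root of F. CPM used TMM-scaled library sizes, log2 CPM a prior count of 2, and the lower limit was 3 counts per library, which covers counting error only. A gene outside the fit was tested by a two-sided exact permutation test of mean CPM over 70 assignments. Levels per kb used the union of exons in GENCODE M21, and sequences came from RefSeq, GRCm38.p6. DESeq2 1.42.0, limma-voom with sample quality weights, other scalings and filters, a replicate block, summed close pairs and leave-one-out fits were the alternatives. The labels name no shared source for equal replicate numbers, and the check of them is with the alternatives. Tables were made with pandas 2.3.3 and scipy 1.17.1 under Python 3.11.15 (numpy 2.4.6), and plots with matplotlib 3.10.9.

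The 10 genes, the further lists and the markers were chosen with earlier results of these data known. Named were all 10 genes, of the further genes those that were DEGs and the one with the highest mean CPM in each list, and for each DEG of the 10 the 3 genes most correlated over 8 libraries. *Stab1*, *Uap1* and *Gusb* were named after their values were seen, as genes without overlap between genotypes, *Adamts4* and others as genes called by another tool, and *Igfbp5* as the counterpart of the transgene.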

Additional observations from a re-analysis of the deposited data

Results flagged for a closer look

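In 38 groups of 4 libraries, 1 for each genotype of a screened gene, the lowest or highest library was compared with the others. Not every gene named above was screened. The measure was the gap to the nearest neighbor over the range of the group. In 2 of the 38 groups this ratio passed Dixon's critical value for 4 samples. That value assumes independent libraries, which the close pairs put in doubt, so no chance rate is set beside the count. A library with a close twin can hardly stand alone at the end of a group, which leaves mainly WT3 and WT4 to be flagged. *Hyal1* in WT3 was at 2.94 log2 CPM, below 3.50 to 3.59 for WT1, WT2 and WT4, a ratio of 0.872. *Msn* in WT3 was at 8.78 log2 CPM, below 9.78 to 9.98 for the same libraries, a ratio of 0.832. Both concern WT3, the library with 7130 counts of mouse *Igfbp5*. Without WT3 the *Hyal1* log2 fold change was -1.13 (edgeR adjusted p = 0.0190).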

How the results depend on the processing

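Over 17 named genes and 19 alternative settings, 275 of 323 log2 fold changes kept their direction and their side of the thresholds, 25 lost the call, 7 gained it and 16 changed sign. The settings with no fold change threshold and with an adjusted p under 0.01 reuse the reported fit, so their log2 fold changes could not differ. Leaving out 1 library of a close pair also keeps its twin, so the 275 overstates how stable the values are. The number of DEGs moved more. It was 1716 of all fitted genes in the reported edgeR fit, 2913 with DESeq2, 3573 with limma-voom and 947 with the replicate block. At an adjusted p under 0.01 it was 398. With the close pairs summed edgeR called 0 of 16130 fitted genes, and 2057 of these had an unadjusted p under 0.05. Leaving out 1 library gave 507 to 2192, the lowest without HOMO1 (507) and HOMO2 (512), then HOMO4 (980) and HOMO3 (1040).

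Of the 10 hyaluronan genes 3 were DEGs (2 higher, 1 lower), against 5 with DESeq2 and 5 with limma-voom (each 2 higher, 3 lower). At an adjusted p under 0.01 there were 0. With the close pairs summed edgeR called 0 of 9 fitted, and 2 of these had an unadjusted p under 0.05. Leaving out 1 library gave 1 to 4, with 1 without HOMO1 and 1 without HOMO2. Of the further genes 3 were DEGs (3 higher, 0 lower), against 7 with DESeq2 (4 higher, 3 lower) and 13 with limma-voom (8 higher, 5 lower). With no filter on low counts there were 5 (4 higher, 1 lower), and at an adjusted p under 0.01 there was 1. With the close pairs summed edgeR called 0 of 34 fitted, and 5 of these had an unadjusted p under 0.05. Leaving out 1 library gave 2 to 6, with 6 without WT3 and 6 without WT4. For *Has1* the exact permutation p was 0.0571 and ranged from 0.0286 to 0.0857 without 1 library.

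The log2 fold change changed sign for *Tnfaip6* (-0.39 with limma-voom, -0.11 to 0.54 without 1 library), *Gfpt1* (-0.052 to 0.21 without 1 library), *Itih2* (-1.08 with limma-voom, -0.29 to 0.64 without 1 library), *Hexa* (0.80 with limma-voom and called there, 0.23 with the block, -0.32 to 0.56 without 1 library) and *Hmmr* (0.059 with the block). None of these 5 was a DEG in the reported fit. The cause was not tested.

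Whether equal replicate numbers share a source is not given by the labels. Deviations from the group means correlated at -0.09, -0.04, 0.01 and -0.12 between libraries of the same number, and at -0.17 to 0.17 between libraries of different number. With few libraries and the close pairs among them, these values cannot decide the question. With the replicate block 2 of the 10 hyaluronan genes were DEGs, *Hyal1* having an edgeR adjusted p of 0.0593, and 3 of the further genes (2 higher, 1 lower), *Ezr* having one of 0.0544.

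Depth limited *Has1*, *Has2os* and the WT values of *Has3*, which rest on 45 counts or fewer per library. The same holds in WT3 and WT4 for *Has2* (6 and 34 counts) and *Tnfaip6* (20 and 40 counts). The reported calls assume 4 independent libraries per genotype, which the close pairs put in doubt.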
